A study of Rattus norvegicus with 20 samples.

Results

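Bile acid synthesis in rat liver was followed through 6 genes: Cyp7a1, Cyp7b1, Cyp27a1, Cyp8b1, Hsd3b7 and Akr1d1. They were found as the probe sets annotated to exactly 1 of these genes, and each gene had 1 such probe set, among 10412 genes named by a probe set of a single gene. Of the 6 genes, 5 were bright enough to be tested, among 7056 tested genes, and Cyp7b1 was not. Livers came from male Wistar rats, an outbred laboratory strain, that were 6 weeks old when restriction began, per the study's design text. Food was restricted by 0% (control), 5%, 10%, 20% or 30%, for 1 week or for 1 month, and every group, controls included, was fasted for 16 h before sampling. In each of these 10 groups the RNA of 5 rats was combined into 1 pool, which was measured on 2 Affymetrix arrays, 20 arrays in all. In the sample labels, 1 week arrays carry an age of 6 weeks and 1 month arrays an age of 9 weeks, and whether start or sampling is meant is not stated.

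Because each condition was a single pool, p-values below measure how far pools depart from a fitted model, and not the spread between rats or between repeated pools. Effects of duration cannot be told apart from those of age or of a processing batch, and the time of day of sampling is not given in the sources used here. Hepatocyte markers were bright throughout. Of 10 listed, 9 were on the array; their summed signal was 43200 to 43400 in the control pools and 40900 to 43500 in the restricted pools, and 0 of 9 passed the restriction test described below. Correlations between the 2 arrays of a pool were 0.948 to 0.971.

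Bile acids are made from cholesterol in hepatocytes, and their synthesis is a main route by which the body disposes of cholesterol. The classic route opens with Cyp7a1, the rate-limiting cholesterol hydroxylase of the endoplasmic reticulum, and the alternative route opens with the mitochondrial sterol hydroxylase Cyp27a1 followed by the oxysterol hydroxylase Cyp7b1. Hsd3b7, a sterol dehydrogenase, and Akr1d1, a steroid reductase, then rework the ring system for both routes, and Cyp8b1 adds the hydroxyl group that makes cholic acid. In rodents the Cyp7a1 transcript follows a daily rhythm and is held down by bile acids returning from the gut.

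Cyp7a1 was higher in every restricted pool, at both durations. Values are given as normalised signal, the MAS5 signal after quantile normalization between arrays, in arbitrary units that cannot be compared between genes. At 1 week the 2 arrays of each pool read 40.9 and 34.9 in controls, 86.6 and 61.3 at 5%, 108 and 116 at 10%, 187 and 177 at 20%, and 239 and 215 at 30%. At 1 month they read 40.8 and 35.6 in controls, 244 and 249 at 5%, 310 and 294 at 10%, 246 and 249 at 20%, and 178 and 206 at 30%. All 16 restricted arrays lay above all 4 control arrays, as was true of 164 of 9520 tested probe sets (1.72%), and at 1 week the pools followed the order of restriction with no overlap. At 1 month the 5% pool was already at the level of the 20% pool, and the 30% pool was the lowest of the restricted pools. Relative to the control pool of the same duration the fold changes were 1.93, 2.97, 4.82 and 6.01 at 1 week, and 6.47, 7.91, 6.48 and 5.02 at 1 month, from 5% to 30%. The 5% pools of the 2 durations did not overlap on their arrays. The 5% pool at 1 week had the widest array spread of this gene (SD 0.35 on the log2 scale, n = 2 arrays).

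**Figure D1:**
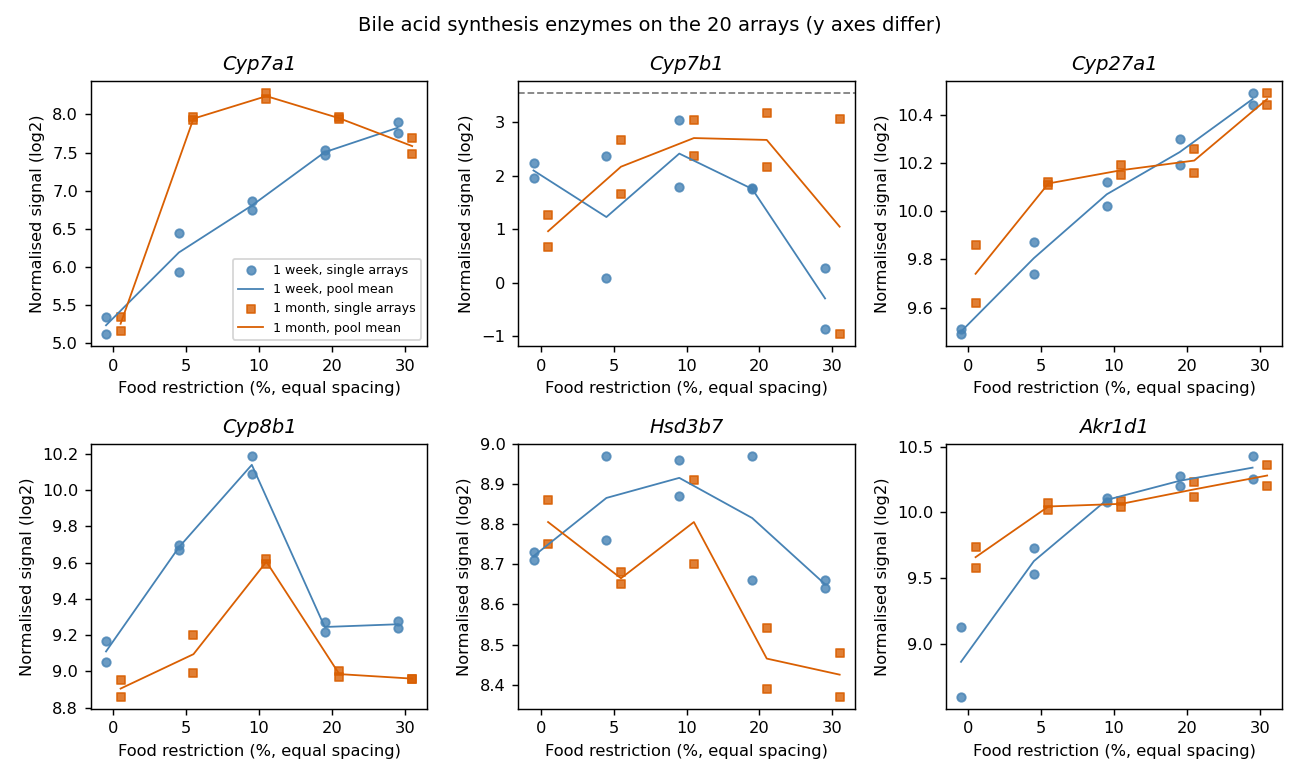
Normalised log2 signal (y axes, which differ between panels) of the 6 bile acid synthesis genes against food restriction in percent. Points are single arrays, 2 per pool, lines join pool means, and the dashed line in the Cyp7b1 panel is the lowest mean signal tested (3.54). Cyp7a1 lies above its controls in 16 of 16 restricted arrays, and Cyp8b1 is highest at 10% at both durations.

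The opening enzyme of the alternative route was also higher under restriction, by less. Cyp27a1 read 728 and 717 in controls at 1 week, then 852 and 934 at 5%, 1110 and 1040 at 10%, 1170 and 1260 at 20%, and 1440 and 1390 at 30%. At 1 month it read 927 and 789 in controls, then 1110 and 1100, 1130 and 1170, 1220 and 1140, and 1390 and 1440. Pool means followed the order of restriction at both durations, although arrays of the 5%, 10% and 20% pools lay close together at 1 month. Fold changes over the control pool of the same duration were 1.24, 1.49, 1.68 and 1.96 at 1 week, and 1.30, 1.34, 1.38 and 1.65 at 1 month. Above all 4 control arrays lay 15 of 16 restricted arrays, the exception being an array of the 5% pool at 1 week. The share of all probe sets with 15 such arrays is not given here, and 1.72% had all 16.

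Cyp7b1 had no usable level. Its arrays read 1.58 to 4.71 in controls and 0.516 to 8.97 under restriction, and all 10 pools were under the lowest mean signal tested, 11.7 units. The 2 arrays of 1 pool differed with an SD of up to 2.83 on the log2 scale, so no difference in this gene was detectable here.

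Of the enzymes that work on the sterol ring, Akr1d1 was higher under restriction and Hsd3b7 was not. Akr1d1 read 558 and 387 in controls at 1 week, then 849 and 737 at 5%, 1110 and 1080 at 10%, 1240 and 1180 at 20%, and 1380 and 1220 at 30%. At 1 month it read 765 and 852 in controls, then 1080 and 1040, 1090 and 1050, 1110 and 1200, and 1180 and 1310. Restricted and control arrays of the same duration did not overlap, a pattern whose share over all probe sets is not given here. By pool means, all 8 restricted pools were above their own control, as in 11.2% of tested probe sets. The control pools themselves stood at 465 at 1 week and 808 at 1 month. The fold changes over the own control were accordingly wider at 1 week (1.70, 2.35, 2.60 and 2.79) than at 1 month (1.31, 1.33, 1.43 and 1.54). The control pool at 1 week had the widest array spread of this gene (SD 0.37 on the log2 scale, n = 2 arrays).

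Hsd3b7 stayed within a 1.40-fold range over all 10 pools. At 1 week it read 418 and 424 in controls, 501 and 433 at 5%, 467 and 496 at 10%, 406 and 501 at 20%, and 399 and 406 at 30%. At 1 month it read 429 and 466 in controls, 410 and 403 at 5%, 417 and 482 at 10%, 373 and 334 at 20%, and 358 and 332 at 30%. At 1 week the 5% and 10% arrays were above the controls of that duration, the 20% arrays lay on either side and the 30% arrays were below. At 1 month the 10% arrays lay on either side and those of the other restricted pools were below. Of 16 restricted arrays, 5 lay above and 10 below all 4 control arrays, and the share of all probe sets with such counts is not given here.

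Cyp8b1, which sets the share of cholic acid, had a different shape, with its highest values at 10% restriction. At 1 week its arrays read 529 and 577 in controls, 813 and 831 at 5%, 1090 and 1170 at 10%, 597 and 618 at 20%, and 623 and 606 at 30%. At 1 month they read 494 and 464 in controls, 587 and 507 at 5%, 769 and 787 at 10%, 511 and 502 at 20%, and 496 and 497 at 30%. Both arrays of the 10% pool lay above all other arrays of the same duration, and the 20% and 30% pools were close to control. Fold changes over control were 1.49, 2.04, 1.10 and 1.11 at 1 week, and 1.14, 1.63, 1.06 and 1.04 at 1 month.

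Sequences before a transcript start of Cyp27a1 and Cyp8b1 are shown because these enzymes had different shapes across the same pools. The table of RefSeq promoters used here (build GRCr8) held 3 of the 6 genes, Cyp27a1, Cyp8b1 and Hsd3b7, and the 250 bases before its transcript start are printed 5′ to 3′ on the gene's strand. Capitals mark matches, on either strand, to CAAGGNC, the core bound by the liver nuclear receptor Nr5a2, and to AGGTCA, a core hexamer of nuclear receptor sites. The first is chr9:83713282-83713531 on the plus strand, which lies inside the annotated span of the gene, and the second chr8:130457593-130457842 on the minus strand.
Cyp27a1: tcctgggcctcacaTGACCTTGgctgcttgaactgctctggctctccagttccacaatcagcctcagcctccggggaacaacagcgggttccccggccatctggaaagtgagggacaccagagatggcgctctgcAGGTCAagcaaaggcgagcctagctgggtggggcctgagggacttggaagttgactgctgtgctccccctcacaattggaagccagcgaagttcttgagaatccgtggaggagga
Cyp8b1: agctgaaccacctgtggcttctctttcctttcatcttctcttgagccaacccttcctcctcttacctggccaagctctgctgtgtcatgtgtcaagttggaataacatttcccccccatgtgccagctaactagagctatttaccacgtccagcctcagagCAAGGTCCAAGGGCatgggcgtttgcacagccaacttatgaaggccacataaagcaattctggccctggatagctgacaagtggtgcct

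The Cyp8b1 window held 2 adjoining CAAGGNC matches, at 89 to 83 and 82 to 76 bases before the start, and 0 of AGGTCA. The Cyp27a1 window held 1 CAAGGNC match on the opposite strand, overlapping an AGGTCA match, and a further AGGTCA at 115 to 110 bases before the start. CAAGGNC was in 15.8% and AGGTCA in 14.1% of 33465 windows of the same length, and the Hsd3b7 window held neither run of letters. The motifs were chosen with the windows in view, and a match is a description of the letters only.

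The restriction step set the 8 restricted pools against the 2 control pools, with duration as a covariate (limma, Benjamini-Hochberg adjustment over 9520 probe sets, threshold 0.05). Of the 5 tested members 3 rose and 0 fell, beside 5.27% of all probe sets called in either direction, 3.16% called higher and 2.11% called lower. Cyp7a1 rose by 2.26 ± 0.331 on the log2 scale (SE, n = 10 pools), 4.79-fold (adjusted p = 0.00255). Akr1d1 rose by 0.85 ± 0.173, 1.80-fold (adjusted p = 0.0154), and Cyp27a1 by 0.57 ± 0.136, 1.49-fold (adjusted p = 0.0282). In bulk tissue, more of a transcript per cell and more cells that hold it cannot be told apart. Cyp8b1 was at 0.36 ± 0.210 (adjusted p = 0.381), although all 8 of its restricted pools were above the control of their duration, as were those of Cyp7a1, Cyp27a1 and Akr1d1. That pattern was found in 11.2% of all tested probe sets. Hsd3b7 was at -0.06 ± 0.112 (adjusted p = 0.835), and at 0.14 in the signals as deposited, a scaling that moves the median of all probe sets by 0.25. The median over the 5 members was 0.57, beside 0.00 over all tested probe sets.

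The exact permutation of which pool is the control within each duration has 25 arrangements and cannot go below p = 0.0400, two-sided. This exact test gave that smallest value for Cyp7a1, Akr1d1 and Cyp27a1, with p = 0.160 for Cyp8b1 and p = 0.760 for Hsd3b7. The calls lean on 2 control pools. Without the 1 month control pool Cyp7a1 was at 1.84 (adjusted p = 0.112) and Cyp27a1 at 0.65 (adjusted p = 0.188). Without the 1 week control pool Akr1d1 was at 0.48 (adjusted p = 0.312) and Cyp27a1 at 0.50 (adjusted p = 0.279). Each of these fits takes the step from the control of the other duration only.

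**Figure D2:**
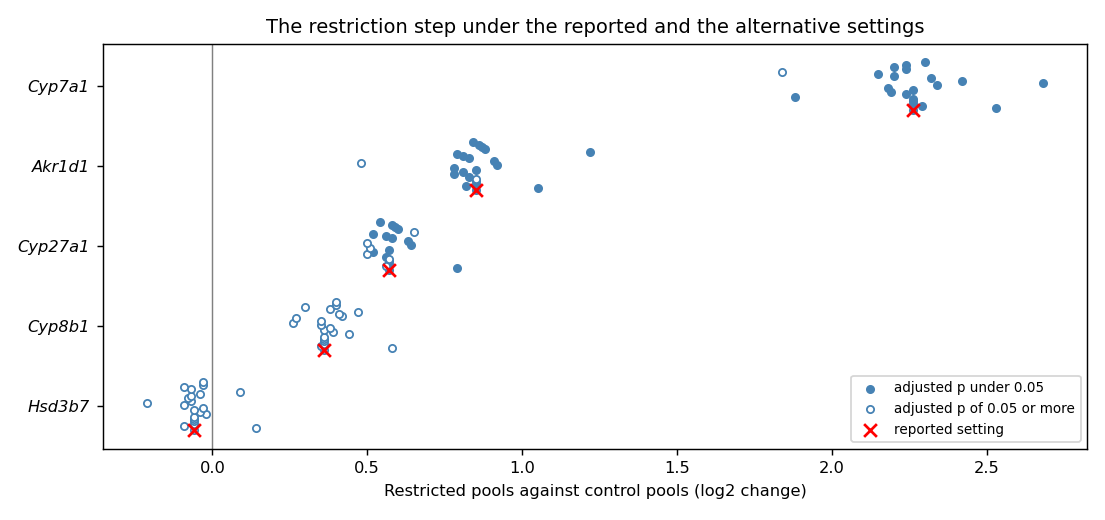
Restricted against control pools (x axis, log2 change) for the 5 tested members (y axis), under the reported setting (cross) and 21 alternatives (filled where the adjusted p was under 0.05). Cyp7a1 passed in 20 of 21 alternatives, Akr1d1 in 19, Cyp27a1 in 15, and Cyp8b1 and Hsd3b7 in 0.

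In a linear dose trend Cyp27a1 and Akr1d1 rose. Expressed per 30 percentage points of restriction over both durations, 2 of 5 members rose and 0 fell, beside 3.76% of probe sets called in either direction, 1.80% called higher and 1.96% called lower. Cyp27a1 rose by 0.75 ± 0.106 on the log2 scale (SE, n = 10 pools), 1.68-fold (limma adjusted p = 0.00610), and Akr1d1 by 0.90 ± 0.213, 1.87-fold (adjusted p = 0.0393). Cyp7a1 had a steeper slope, 1.95 ± 0.591, that did not pass (adjusted p = 0.0909); it passed without the 5% pool at 1 month (2.25, adjusted p = 0.0379) and without the 30% pool at 1 month (2.69, adjusted p = 0.0391). Cyp8b1, highest in the middle of the range, was at -0.16 ± 0.261 (adjusted p = 0.804), and Hsd3b7 at -0.26 ± 0.102 (adjusted p = 0.198). The trend of Cyp27a1 did not pass in the signals as deposited (0.85, adjusted p = 0.188) or with the GAPDH ratio, a sign of RNA quality, as a covariate (0.84, adjusted p = 0.0859). The trend of Akr1d1 passed in 10 of 21 alternatives and was lost, for one, without the 30% pool at 1 week (0.90, adjusted p = 0.138).

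Taken level by level, each comparison set 2 pools against the same 2 control pools, so the counts are not independent. The spread was taken from all 10 pools. At 5% restriction 0 of 5 members passed by limma, beside 0.452% of probe sets called and 0.273% called higher, and 4 members had an unadjusted p under 0.05, beside 9.83% of probe sets. Cyp7a1 was at 1.82 ± 0.407 (SE, n = 10 pools, adjusted p = 0.0971), and without the 5% pool at 1 week at 2.49 (adjusted p = 0.0216). At 10% 3 members rose, beside 2.18% of probe sets called and 1.33% called higher. They were Cyp8b1 (0.87 ± 0.113, 1.82-fold, adjusted p = 0.00726), Cyp7a1 (2.28 ± 0.407, 4.85-fold, adjusted p = 0.0211) and Cyp27a1 (0.50 ± 0.102, adjusted p = 0.0371). Akr1d1 was at 0.82 (adjusted p = 0.0566). Each of these 3 calls was lost without the 10% pool at 1 week: Cyp8b1 was then at 0.77 (adjusted p = 0.0703), Cyp7a1 at 2.75 (adjusted p = 0.0620) and Cyp27a1 at 0.48 (adjusted p = 0.189). None of the 5 members passed without the 1 week control pool either, with Cyp8b1 at 0.76 (adjusted p = 0.0589).

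At 20% and at 30% the set of risen members was Cyp7a1, Cyp27a1 and Akr1d1, beside 3.80% and 4.53% of probe sets called, and 2.16% and 2.45% called higher. Cyp7a1 rose by 2.48 (limma adjusted p = 0.0102) and 2.46 (adjusted p = 0.00841) on the log2 scale at 20% and 30%, Cyp27a1 by 0.61 (adjusted p = 0.0111) and 0.85 (adjusted p = 0.00155), and Akr1d1 by 0.95 (adjusted p = 0.0246) and 1.05 (adjusted p = 0.0124). Cyp8b1 was at 0.11 (adjusted p = 0.705) and 0.10 (adjusted p = 0.700), and Hsd3b7 at -0.12 (adjusted p = 0.678) and -0.22 (adjusted p = 0.362). Without the 20% pool at 1 week 0 members passed at 20%, and without the 30% pool at 1 week Cyp27a1 alone of the 5 passed at 30%. With the 3′ to 5′ ratio of actin, lowest in the 30% pools, as a covariate, none of the 30% calls held. Cyp7a1 was then at 2.23 ± 0.661 (limma adjusted p = 0.330), Cyp27a1 at 0.86 ± 0.168 (adjusted p = 0.106) and Akr1d1 at 1.15 ± 0.307 (adjusted p = 0.251). Of all tested probe sets 1 passed at 30% in that fit, beside 431 without the covariate. Cyp7a1 did not pass without the 1 month control pool (adjusted p = 0.125 at 20% and 0.107 at 30%), nor Akr1d1 without the 1 week control pool (adjusted p = 0.135 and 0.0772). At 20% Cyp27a1 did not pass without the 1 week control pool (adjusted p = 0.0990) or the 1 month control pool (adjusted p = 0.0643), nor Akr1d1 without the 20% pool at 1 month (adjusted p = 0.0529).

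**Figure D3:**
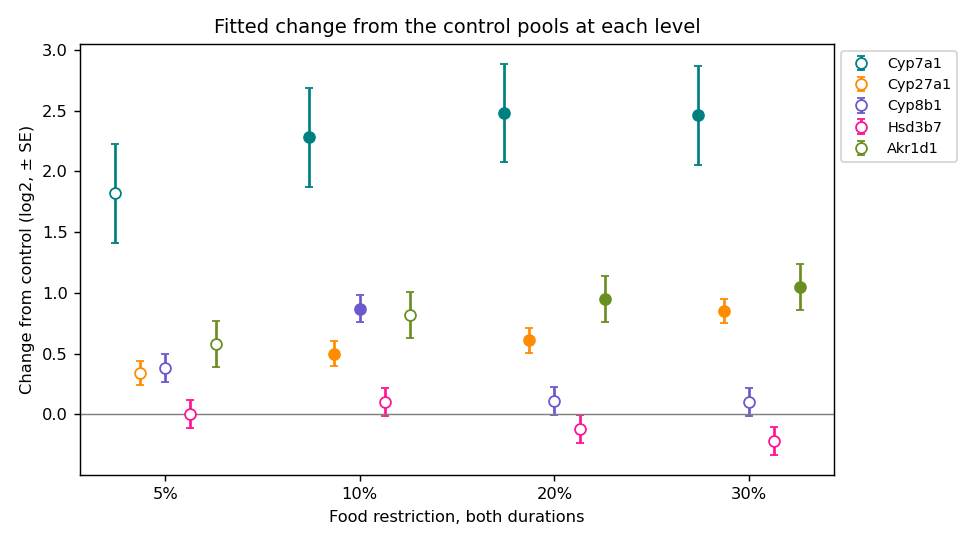
Fitted change from the control pools (y axis, log2, bars are ± SE with the spread taken from all 10 pools) at each restriction level (x axis) for the 5 tested members. Filled points passed at an adjusted p of 0.05: 0 at 5%, and 3 at 10%, 20% and 30% each, with Cyp8b1 among them at 10% only.

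Each restricted pool was also set against its own control by size alone, a log2 difference of at least 1 with the arrays of the pools not overlapping. Among the 5 tested members the rule was met in 11 comparisons of a pool with its control. For the untested Cyp7b1, whose pools all lay under the lowest mean signal tested, no size is given. Cyp7a1 met it in 7 of 8 pools, all but the 5% pool at 1 week. Akr1d1 met it at 10%, 20% and 30% at 1 week, Cyp8b1 at 10% at 1 week, and Cyp27a1 and Hsd3b7 in 0 pools. From 5% to 30%, the share of all probe sets higher by this rule was 1.85%, 2.24%, 2.59% and 2.65% at 1 week, and 3.28%, 3.24%, 2.67% and 2.79% at 1 month.

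The durations were then set side by side, each step resting on the single control pool of its duration, with the spread taken from all 10 pools. In the step at 1 week Akr1d1 rose by 1.22 ± 0.206 on the log2 scale (SE, n = 10 pools), 2.32-fold (limma adjusted p = 0.0321), 1 member of 5 beside 0.641% of probe sets called and 0.504% called higher. Cyp7a1 was at 1.84 ± 0.459 there (adjusted p = 0.112). In the step at 1 month Cyp7a1 rose by 2.68 ± 0.459, 6.39-fold (adjusted p = 0.0244), 1 member of 5 beside 1.21% of probe sets called and 1.01% called higher, and Akr1d1 was at 0.48 (adjusted p = 0.313). These calls held in 11 of 19 alternatives for Akr1d1 and in 16 of 19 for Cyp7a1. The 1 week step of Akr1d1 was 1.01 with array 1 of each pool alone and 1.42 with array 2 alone. The difference of the steps, 1 month minus 1 week, was 0.83 ± 0.649 for Cyp7a1 (adjusted p = 0.972) and -0.73 ± 0.291 for Akr1d1 (adjusted p = 0.823). By limma 0 of 9520 probe sets passed in that difference (0%), and 551 (5.79%) had an unadjusted p under 0.05, Akr1d1 the only member among them. The unequal calls at the durations are therefore not shown to differ.

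The slopes within a duration, each resting on the pools of that duration with the spread taken from all 10 pools, gave 1 call. Cyp27a1 rose by 0.91 ± 0.140 on the log2 scale per 30 percentage points at 1 week (SE, n = 10 pools, limma adjusted p = 0.0245), 1 member of 5 beside 0.714% of probe sets called and 0.294% called higher. It passed in 11 of 21 alternatives, and without the 1 week control pool it was at 0.74 (adjusted p = 0.167). At 1 month 0 members passed, beside 0.0315% of probe sets, and 2 had an unadjusted p under 0.05, beside 10.5% of probe sets. The 1 month slope of Cyp7a1 was 1.45 ± 0.849 (adjusted p = 0.603) and fell to -0.55 without the 1 month control pool. The difference of its slopes, 1 month minus 1 week, was -1.01 ± 1.20 (adjusted p = 0.965), and without that control pool -3.01 (adjusted p = 0.0470). Between 1 month and 1 week 0 members passed by limma, beside 0.336% of probe sets, and 0 had an unadjusted p under 0.05. Cyp7a1 was at 0.68 ± 0.424 (adjusted p = 0.615) and Cyp8b1 at -0.38 ± 0.188 (adjusted p = 0.506).

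The members fell into different shapes over the 10 pools, which share normalization and control pools, so the correlations are given as a description. Cyp27a1 and Akr1d1 were the closest pair (Pearson r = 0.94 over 10 pools), and Cyp7a1 stood at r = 0.86 with Cyp27a1 and r = 0.83 with Akr1d1. Cyp8b1 had r = 0.04 with Cyp7a1, r = -0.04 with Cyp27a1 and r = 0.08 with Akr1d1, and its highest value was r = 0.69 with Hsd3b7. Over all tested genes, the patterns most like that of Cyp7a1 were those of Exosc5 (r = 0.980), Atp6v1e1 (r = 0.977) and Por (r = 0.975). For Cyp27a1 they were Nr1i2 (r = 0.970), Pcsk6 (r = 0.968) and Slc25a33 (r = 0.963). For Akr1d1 they were Inmt (r = 0.987), Slc22a23 (r = 0.980) and Sulf2 (r = 0.975). Cyp8b1 had no gene as near, with Mpdz (r = 0.868), Ephx2 (r = 0.858) and Ccnd1 (r = 0.851) the closest. For Hsd3b7 the closest were Pdcd7 (r = 0.940), Rbms2 (r = 0.910) and Fabp7 (r = 0.882).

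Other enzymes of the pathway rose in part. Of 17 genes listed for side chain shortening, conjugation and other steps, 13 were on the array and 12 tested. The list includes Akr1c14 and the hydroxylases Cyp39a1, Ch25h, Cyp46a1, Cyp2c70 and Cyp3a9, which neither shorten the side chain nor conjugate bile acids. In the restriction step 4 rose and 0 fell, beside 3.16% of all probe sets called higher and 2.11% called lower. The median was 0.21 on the log2 scale, beside 0.00 over all probe sets. Akr1c14, an aldo-keto reductase that acts on sterol intermediates, rose by 0.85 ± 0.143 (limma adjusted p = 0.00615, SE over 10 pools). The acyl-CoA synthetases Slc27a2 and Slc27a5, which activate bile acids, rose by 0.39 (adjusted p = 0.0201) and 0.43 (adjusted p = 0.0203), and the racemase Amacr by 0.33 (adjusted p = 0.0357). In the dose trend Akr1c14 was the 1 gene of this list that rose (0.88, adjusted p = 0.0267), beside 1.80% of all probe sets called higher.

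Por, the reductase that feeds electrons to microsomal cytochromes P450 such as Cyp7a1 and Cyp8b1, rose in the step by 2.26 ± 0.357 (4.79-fold, SE, n = 10 pools, limma adjusted p = 0.00428). Of 7 listed NADPH and haem partners of P450 enzymes 6 were tested. Por was the 1 that rose in the step and 1 fell, beside 3.16% of all probe sets called higher and 2.11% lower. The cytochrome b5 reductase Cyb5r3 fell by 0.34 on the log2 scale (adjusted p = 0.0260). Fdx1, the ferredoxin that serves mitochondrial P450 enzymes such as Cyp27a1, was at -0.25 (adjusted p = 0.162), and Cyb5a at 0.22 (adjusted p = 0.221). In the dose trend 2 of the 6 rose and 1 fell, beside 1.80% of all probe sets called higher and 1.96% lower. Por was among those that rose (2.31, limma adjusted p = 0.0278).

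Among regulators, 2 of 19 tested (20 on the array, 23 listed) rose in the step and 0 fell, with a median of 0.18. Of all probe sets, 3.16% were called higher in the step and 2.11% lower. The 2 risen regulators were the xenobiotic receptors Nr1i2, by 0.68 (limma adjusted p = 0.0171), and Nr1i3, by 0.91 (adjusted p = 0.0200). Both also rose in the trend, by 0.79 (adjusted p = 0.0126) and 1.05 (adjusted p = 0.0176), beside 1.80% of all probe sets called higher. Prox1, a repressor of Cyp7a1, was at 0.36 (adjusted p = 0.180), and Egr1 at -0.73 (adjusted p = 0.182). The bile acid receptor Nr1h4 was at -0.24 (adjusted p = 0.277) and its target Nr0b2, a repressor of Cyp7a1, at 0.24 (adjusted p = 0.695); these last genes were named after their values were seen.

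Part of the listed clock genes differed between control and restricted pools as well. Of 17 listed, 13 were on the array and 12 tested. In the step 5 rose, 1 fell and 6 did not pass (median 1.07), beside 3.16% of all probe sets called higher and 2.11% lower. In the trend 0 of 12 passed, beside 3.76% of all probe sets. Dbp, a rhythmic factor that acts on Cyp7a1 in rodents, read 4.17, 141, 296, 236 and 202 units in the 1 week pools, and 7.12, 278, 241, 172 and 33.5 in the 1 month pools, from control to 30%. Both control pools were under the lowest mean signal tested, and with them raised to that level its rise was at least 14.8-fold. The adjusted p of 0.00106 is from the limma fit to the values before raising. Cry2 rose by 1.57 (adjusted p = 0.000192), Nr1d2 by 2.06 (adjusted p = 0.000723), and Per2 at least 4.88-fold (adjusted p = 0.000657). These genes moved with the same control pools as Cyp7a1, and their part in the result for Cyp7a1 was not tested.

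Transport and cholesterol supply changed in single genes. Abcg5, which with Abcg8 exports sterols into bile, read 11.4 and 17.7 units in the control pools and 40.6 to 106 in the restricted pools, without overlap. The share of all probe sets without such overlap of pools is not given here. Abcg5 rose at least 4.58-fold in the step (limma adjusted p = 0.00235). For Abcg8 the picture was less clear. Both control pools of Abcg8 and its 5% pool at 1 month were under the lowest mean signal tested, and it did not pass in the step (adjusted p = 0.0808). It rose in the trend (adjusted p = 0.0422), with a slope of 0.85 per 30 percentage points once those pools were raised to that level, which is no bound. The drug transporter Abcb1a rose at least 1.70-fold (adjusted p = 0.0326) and the bile acid uptake carrier Slc10a1 was at 0.25 (adjusted p = 0.0525). Of 16 listed transporters 10 were tested. In the step 2 rose and 0 fell, beside 3.16% of all probe sets called higher and 2.11% lower. In the trend 1 rose and 2 fell, beside 1.80% called higher and 1.96% lower. The falls were in the canalicular exporters Abcb11, by 0.48 on the log2 scale (adjusted p = 0.0374), and Abcc2, which fell by 0.76 (adjusted p = 0.00734).

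Of 15 genes of cholesterol supply and storage 8 were tested. In the step 1 rose and 1 fell, beside 3.16% of all probe sets called higher and 2.11% lower. Insig1, the sterol-regulated retention protein of the endoplasmic reticulum, fell by 2.74 ± 0.335 on the log2 scale (limma adjusted p = 0.00106, n = 10 pools). Nceh1, a cholesteryl ester hydrolase, rose by 1.71 (adjusted p = 0.00224). The lipoprotein receptor Scarb1 was at 0.33 (adjusted p = 0.127) and Srebf2 at -0.35 (adjusted p = 0.239).

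**Figure D4:**
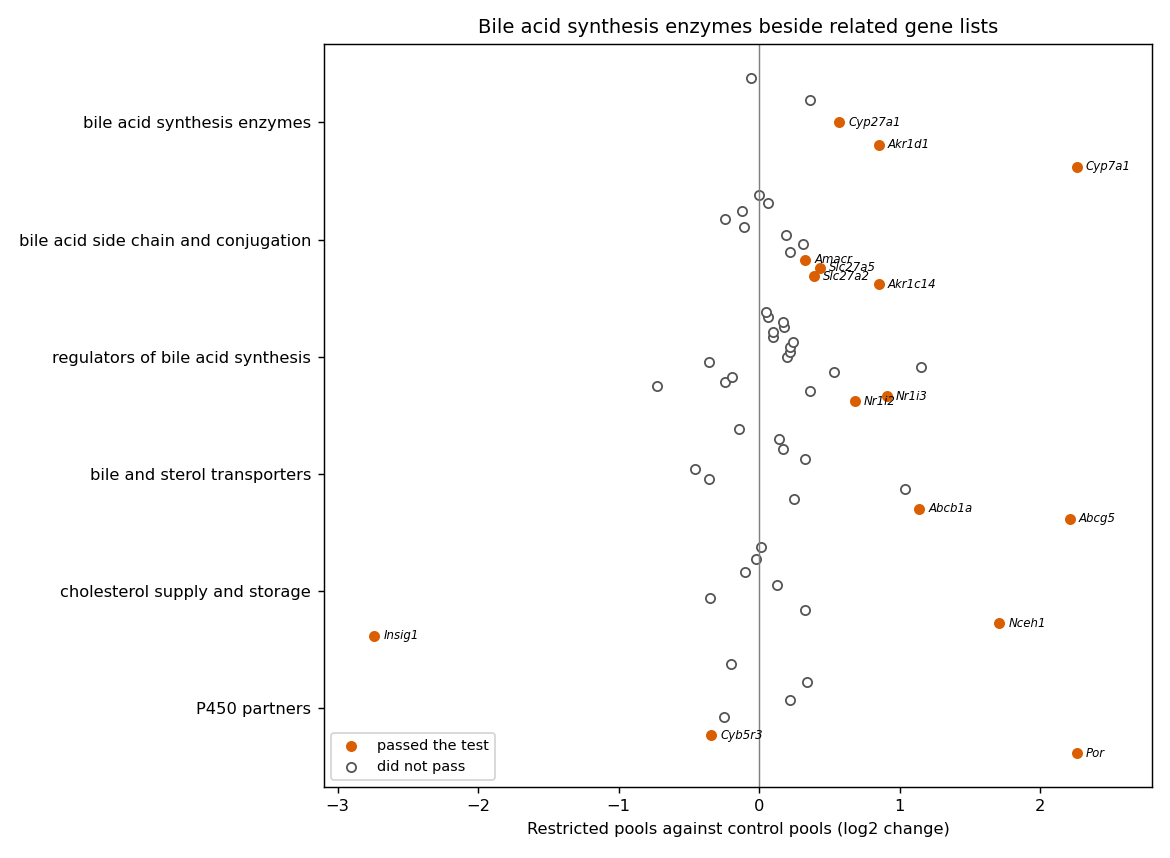
Change in restricted against control pools (x axis, log2) for every tested gene of the bile acid synthesis set and of 5 related lists (y axis, points spread vertically for legibility). Filled points passed at a limma adjusted p of 0.05 and carry their name; Cyp7a1, Abcg5 and Por lie above 2 and Insig1 is at -2.74.

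Signs of other cell types and of RNA quality were set beside these changes. Summed bile duct markers, of which 4 of 6 were on the array and Krt7, Krt19 and Spp1 lay under the lowest mean signal tested, were 66.5 to 77.0 in controls and 42.8 to 59.9 under restriction. Endothelial markers (4 of 7 on the array) were 196 to 237 and 254 to 329, with Kdr rising by 0.60 (limma adjusted p = 0.00899). Of these 4 endothelial genes 3 were higher in the step, with changes from -0.11 to 0.60, and the 1 bile duct gene tested was at -0.37 and did not pass. Neither sum overlapped between controls and restricted pools, a pattern whose share over all probe sets is not given here. The part of both sums in the changes above was not tested. Kupffer cell markers (3 of 7; 216 to 314 and 201 to 299), and stellate cell markers (8 of 8; 480 to 619 and 457 to 712) overlapped. Red cell genes (2 of 4) were below the control of the same duration in all 8 restricted pools, at 1280 to 1870 against 2110 at 1 week and 997 to 1160 against 1170 at 1 month. Summed pericentral hepatocyte markers (7 of 8) were above it in all 8, at 6890 to 8410 against 6530 at 1 week and 6370 to 7710 against 5820 at 1 month. Taken singly, these genes went both ways. Of 6 tested, 3 were higher in the step, 1 rose and 1 fell past the threshold, and changes ran from -0.46 to 0.60. The part of these sums in the changes above was not tested either. Summed periportal markers (8 of 8) were 11300 to 12400 against 11600 at 1 week and 12800 to 14300 against 12000 at 1 month. Taken singly, 5 of these 8 were higher in the step, 2 rose and 0 fell past the threshold. Their changes ran from -0.68 to 1.63, beside 3.16% of all probe sets called higher and 2.11% lower. The part of the periportal genes in the changes above was not tested. The 3′ to 5′ ratio of GAPDH was 1.51 and 1.52 in the control pools, inside the range of 1.30 to 1.61 over all pools. The actin ratio was 2.73 and 2.72 in the control pools and lowest in the 30% pools, 2.23 and 2.28, with a highest value of 3.07. With the GAPDH ratio as a covariate the step of Cyp7a1 was 2.24 (adjusted p = 0.00708) and that of Cyp27a1 0.50 (adjusted p = 0.0541).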

How the data were processed

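The authors deposited 1 linear intensity value for each probe set on each array. Per the submitters' processing notes these are MAS5 signals, and the MAS5 version is not given in the sources used here. Array medians of these values ran from 14.0 to 33.2, so arrays were brought to a common scale here. Before taking log2, each of 32 zeros was replaced by the array's lowest value above 0. All 15923 probe sets were then quantile normalized, and 57 control probe sets were left out. The upper 60% by mean signal, 9520 probe sets, were tested. The mean of the 2 arrays of a pool was the unit (n = 10 pools), since these are technical repeats. Linear models were fitted with limma 3.58.1 (R 4.3.3; lmFit, then eBayes with a variance trend). P-values were two-sided and adjusted by Benjamini-Hochberg with a threshold of 0.05, and the fits were tested on simulated data. The number of arrays limits the precision.

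Genes were named from the platform annotation, through probe sets with a single gene, by the brightest one. From each related list up to 4 genes of smallest step p were named, and 3 nearest genes for each member. Genes that passed in the trend were also named, except among the P450 partners, where they are given as counts beside Por. The members and lists were chosen with earlier results of these data known. A fold is given as "at least" where a control pool lay under the lowest mean signal tested, with such pools raised to it. The adjusted p beside such a fold is from the fit to the values before raising. Array numbers did not pair the samples: over 45 pairs of pools the differences between same-numbered arrays correlated at -0.05 to 0.12, with 2 pairs over 0.1. The alternatives changed scaling, filter, variance model, pseudocount, RNA ratio covariates and pools left out.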

Additional observations from a re-analysis of the deposited data

How the results depend on the processing

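The step called 3 members, 1 with no variance trend and 1 to 3 with a pool or a replicate array left out (1 without either control pool). The dose trend called 2 members, 0 in the signals as deposited and with the GAPDH ratio as a covariate, and 1 with median centring, no filter, no variance trend or the actin ratio, with 1 to 3 when a pool or array was left out. At 5% the count was 0, 1 in the signals as deposited, 4 with the replicate block, and 0 to 1 with a pool left out. At 10% it was 3, 0 with no variance trend, 1 with the actin ratio, and 0 to 4 with a pool left out (0 without the 1 week control or 10% pool). At 20% it was 3, 0 with no variance trend, and 0 to 3 with a pool left out. At 30% it was 3, 0 with no variance trend or the actin ratio, and 1 to 3 with a pool left out. The difference of slopes called 0, and 0 to 1 with a pool left out. The number of all probe sets that passed changed with these settings too. With no variance trend it was 0 at 10%, 0 at 20% and 107 at 30%, beside 208, 362 and 431 as reported. With the actin ratio it was 116 at 10% and 1 at 30%. In the dose trend it was 58 in the signals as deposited and 3 with the GAPDH ratio, beside 358 as reported. Lost calls in these fits are therefore not particular to the members. A size rule of 0.58 gave 18 comparisons in place of 11. The 1 month slope of Cyp7a1, 1.45, was -0.55 to 3.29 with a pool left out, and -0.55 without the 1 month control.

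The other sign changes were in values that passed in neither setting. In the signals as deposited Hsd3b7 was at 0.14 in the step, 0.17 in the 1 month step, 0.24 at 20%, 0.02 between durations and 0.06 in the difference of steps, where Cyp8b1 was at 0.15 and Cyp27a1 at 0.21. With median centring Hsd3b7 was at -0.04 at 5%, -0.10 in the 1 week step and 0.00 in the difference of steps, where Cyp8b1 was at 0.09 and Cyp27a1 at 0.16. With a pool or array left out, Hsd3b7 ranged from -0.21 to 0.09 in the step, -0.15 to 0.16 at 5%, -0.06 to 0.25 at 10%, -0.27 to 0.03 at 20% and -0.28 to 0.11 in the 1 week slope. Cyp8b1 ranged from 0.00 to 0.22 at 20%, -0.01 to 0.21 at 30%, -0.84 to 0.09 and -0.44 to 0.15 in the 1 week and 1 month slopes and -0.23 to 0.72 in their difference, where Cyp7a1 ranged from -3.01 to 0.83. The causes were not tested.

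Over the 5 tested members in all comparisons, 1335 values under alternatives were set against 65 reported ones: 1186 kept direction and side of the threshold, 90 lost the call, 29 gained one and 30 changed sign. The replicate block fits 20 arrays singly and its array numbers do not mark pairs. Leaving out a pool also leaves its level with 1 pool, assumed to vary like the others.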
